A study of Rattus norvegicus with 31 samples.

Results

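Genes for the structure and the remodelling of the extracellular matrix were followed in the gastrocnemius, the calf muscle, of female Sprague Dawley rats. The members were all listed genes whose symbols belong to the collagen chains, laminin chains, lysyl oxidases, Timp inhibitors, Mmp and Adamts proteases, fibulins and fibrillins, together with Bgn, Dcn, Lum, Fmod, Prg4, Chad, Cilp, Cilp2, Postn, Sparc, Fn1 and Htra3. The rule found 71 of the 11289 listed genes, and 64 of these passed the filter on low counts, beside 10082 genes tested in all. The members were sorted into 12 role classes. The rats were Ucp1 knockouts after 14 days at 4 °C (n = 8), Ucp1 knockouts kept at room temperature (n = 7), controls after 14 days at 4 °C (n = 8) and controls kept at room temperature (n = 8). All were 7 months old and ate a chow diet, and each rat gave 1 library. Ucp1 encodes the mitochondrial carrier that lets brown fat burn fuel for warmth. The labels name the genotype only as knockout or control, Ucp1 itself is not analysed here, and so the genotype rests on the labels.

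The extracellular matrix of skeletal muscle is laid down mainly by fibroblasts and surrounds each fibre, each fibre bundle and the whole muscle, where it carries force to the tendon. Fibrillar collagens form its tensile cables, small leucine-rich proteoglycans coat and space them, and lysyl oxidases join the chains by covalent bonds. Basement membranes of type IV collagen and laminin sheathe the fibres and the capillaries. Secreted proteases and their Timp inhibitors set how fast this material is taken apart.

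Libraries came from a QuantSeq 3' kit, so a count does not grow with transcript length but depends on the annotated 3' end. Total counts ran from 6.56 M to 11.9 M per library (M for mega), with a mean of 9.30 ± 1.26 M (SD, n = 31). The 71 members together took 0.148 to 0.409% of a library's counts. Levels are in CPM, counts relative to the library total after scaling by TMM. Changes are log2 fold changes, each followed by its standard error (SE). A gene is called when its edgeR quasi-likelihood p, adjusted by Benjamini-Hochberg over the 10082 genes, is under 0.05. The samples are whole tissue, in which fewer cells of a type and less RNA per cell cannot be told apart. A pair of libraries, control rats 1 and 2 at room temperature, lay far from the rest along the second principal component of all genes, with scores of -62.3 and -79.8. Along the first component 7 libraries scored below -30. They were 2 knockouts in the cold, 2 knockouts at room temperature, 2 controls in the cold and control rat 1 at room temperature.

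Cold raised a small set of matrix genes while most of the bulk matrix showed no called change. With the cold effect averaged over both genotypes, 9 of the 64 members were called, which is 14.1% of them, against 5.65% of all genes tested. Of these, 8 were higher in the cold, among them Htra3, Prg4, Bgn, Lox, Fbln1, Loxl1 and Col16a1, where 3.67% of all genes were called higher, and 1 was lower (Col5a3), where 1.98% of all genes were called lower. In controls alone 5 members were called, Htra3, Prg4, Bgn, Lox and Fbln1, all higher, beside 0.853% of all genes called and 0.595% called higher. In knockouts alone 3 were called, Htra3, Prg4 and Bgn, all higher, beside 1.38% of all genes called, 1.02% called higher and 0.357% called lower. Without knockout rat 14 at room temperature 0 were called in knockouts, and 1 was called without knockout rat 13 at room temperature, without knockout rat 31 in the cold or without the 7 libraries. In controls 0 were called without control rats 1 and 2 at room temperature, 1 without rat 2 alone or without rat 21 in the cold, and 2 without rat 1 at room temperature, rat 20 in the cold or rat 22 in the cold. There were 3 without rat 7 at room temperature or rat 17 in the cold. For the mean of the genotypes 8 of the 9 calls held without control rats 1 and 2. The median log2 change of the 64 members for the mean of the genotypes was 0.11, against -0.02 over all genes, with 40 of the 64 above 0.

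**Figure D1:**
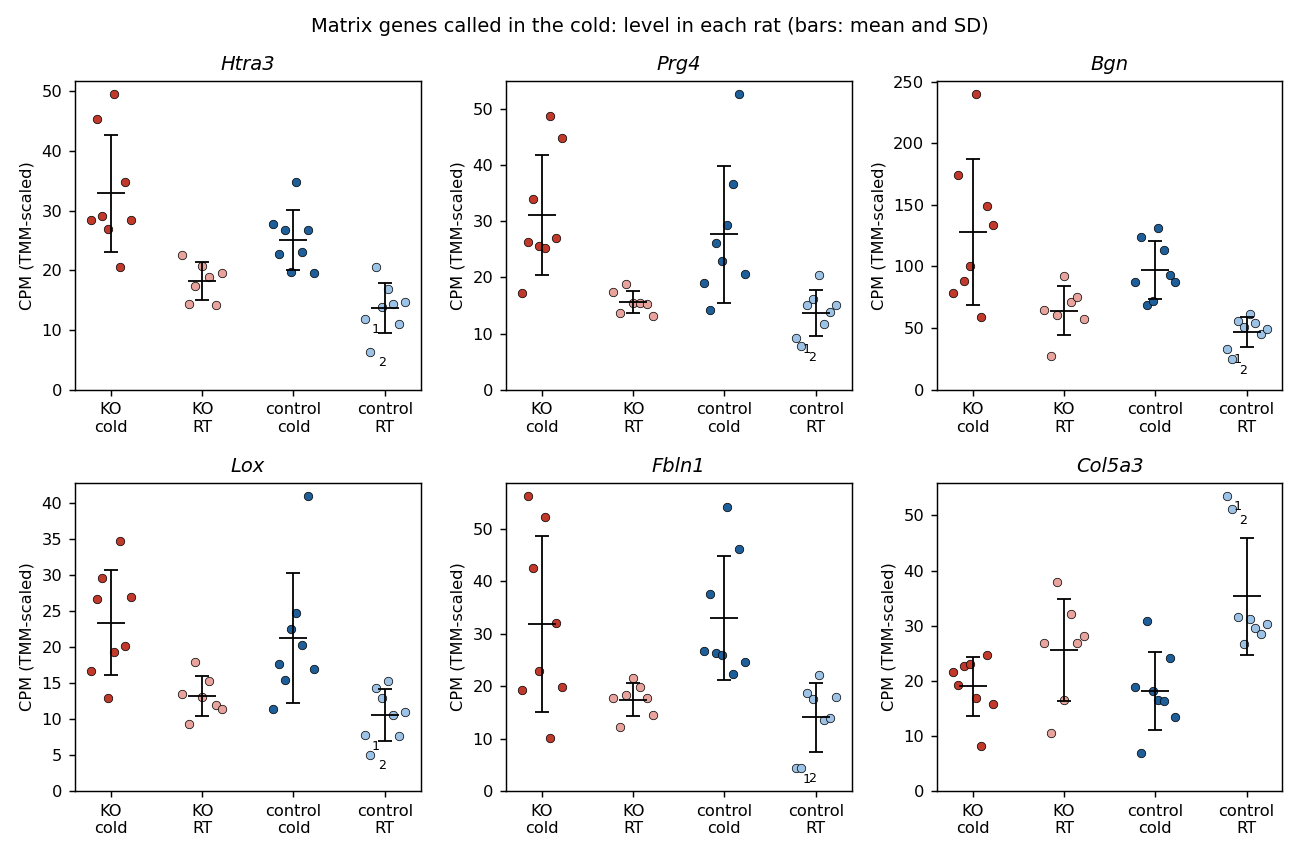
Level (CPM after TMM scaling, linear axis from 0) of Htra3, Prg4, Bgn, Lox, Fbln1 and Col5a3 in each of the 31 rats, with KO for the Ucp1 knockout and RT for room temperature. Points are rats, horizontal bars the mean and error bars the SD; numerals 1 and 2 mark the control rats that stood apart, which were the lowest 2 of their group for Prg4, Bgn and Fbln1 and the highest 2 for Col5a3.

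Among the proteases, Htra3 was the only called member of 16 tested. Htra3 (ENSRNOG00000008182) encodes a secreted serine protease of the HtrA family. Its level ran from 20.5 through a median of 28.8 to 49.6 CPM in knockouts in the cold, against 14.2, 18.9 and 22.5 CPM in knockouts at room temperature. In controls it was 19.5, 24.9 and 34.8 CPM in the cold, against 6.36, 14.1 and 20.6 CPM at room temperature. The groups overlapped only at their edges, with 7 of 8 knockouts and 6 of 8 controls in the cold above every rat of their genotype at room temperature. The log2 change was 0.85 ± 0.19 in knockouts (adjusted p = 0.0169) and 0.88 ± 0.19 in controls (adjusted p = 0.0167). It was 0.87 ± 0.13 for the mean of the genotypes (adjusted p = 9.93e-05).

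Of the other 15 tested proteases none was called for the mean of the genotypes, and their log2 changes reached down to -0.87 ± 0.30 for Adamts20 (adjusted p = 0.0837). Control rats 1 and 2 at room temperature had 12.5 and 19.6 CPM of Adamts20, against a group median of 3.02 CPM. Mmp15, a membrane-bound metalloproteinase and the most abundant protease of the class, averaged 51.8 ± 12.04 CPM in knockouts in the cold and 53.0 ± 5.13 CPM in knockouts at room temperature (SD, n = 8 and 7). In controls Mmp15 averaged 59.6 ± 8.78 CPM in the cold and 61.4 ± 13.1 CPM at room temperature (SD, n = 8 each). Its log2 change was -0.04, with a 95% interval of -0.24 to 0.17, and it turned to 0.029 without control rats 1 and 2. Mmp2, the gelatinase that cleaves denatured collagen and type IV collagen, had a log2 change of 0.07 ± 0.11 (adjusted p = 0.781).

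None of the 4 metalloproteinase inhibitors was called by edgeR with all 31 libraries, and Timp1 lay nearest to the threshold. Timp1, the inhibitor most often induced in injured tissue, had 7.08, 9.93 and 12.8 CPM as lowest, median and highest level in knockouts in the cold, against 3.48, 5.29 and 7.88 CPM in knockouts at room temperature. In controls it had 5.48, 6.10 and 10.9 CPM in the cold, against 2.77, 6.31 and 8.38 CPM at room temperature. The knockout groups overlapped little, with 6 of 8 cold rats above every room temperature rat, and the control groups largely. The log2 change was 0.74 ± 0.22 in knockouts (adjusted p = 0.0786), 0.26 ± 0.22 in controls (adjusted p = 0.593) and 0.50 ± 0.16 for the mean (adjusted p = 0.0507). DESeq2, another count model, placed the change in knockouts and the mean change past the threshold. EdgeR also called Timp1 in knockouts without control rats 1 and 2 at room temperature. For the mean it called Timp1 without the 7 libraries low on the first component and in some fits that each left out 1 library. Timp2 was called for the mean without knockout rat 29 in the cold. For the mean of the genotypes, Timp2 had 0.26 ± 0.09 (adjusted p = 0.0959), Timp3 0.27 ± 0.13 (adjusted p = 0.252) and Timp4 -0.22 ± 0.14 (adjusted p = 0.417). The spans of Timp1, Timp3 and Timp4 each overlap that of a synapsin gene (Syn1, Syn3 and Syn2, as paired in the RefSeq GRCr8 table). The strand setting is not given and exons were not compared, so whether these pairs share reads is not known.

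Of the 3 tested cross-linking enzymes, Lox and Loxl1 were called higher for the mean of the genotypes and Loxl2 was not called. Lox (ENSRNOG00000014426), the lysyl oxidase that starts the cross-linking of collagen and elastin, ran from 12.97 through a median of 23.5 to 34.7 CPM in knockouts in the cold, against 9.41, 13.2 and 17.9 CPM in knockouts at room temperature. In controls it was 11.4, 19.03 and 41.0 CPM in the cold, against 5.11, 10.8 and 15.3 CPM at room temperature. In the cold 6 of 8 knockouts and 7 of 8 controls lay above every rat of their genotype at room temperature. For Lox the log2 change was 0.82 ± 0.24 in knockouts (adjusted p = 0.068), 1.01 ± 0.23 in controls (adjusted p = 0.0276) and 0.92 ± 0.17 for the mean (adjusted p = 0.000866). DESeq2 placed the change in knockouts past the threshold. EdgeR did so without control rats 1 and 2 at room temperature and in some fits that each left out 1 library. The call in controls was lost without control rats 1 and 2.

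Loxl1 (ENSRNOG00000008680), which is needed for elastic fibres in mice, was lower in level. It had 9.63, 11.98 and 24.1 CPM in knockouts in the cold, against 5.18, 10.9 and 15.04 CPM in knockouts at room temperature, and 7.59, 13.7 and 21.4 CPM in controls in the cold, against 5.06, 8.31 and 10.1 CPM in controls at room temperature. The groups overlapped in both genotypes. The log2 change for the mean was 0.58 ± 0.16 (adjusted p = 0.0247), and without the 7 libraries low on the first component it was 0.51 (adjusted p = 0.0826). Loxl2 had a log2 change of -0.03 ± 0.19 (adjusted p = 0.959).

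Of the small leucine-rich proteoglycans, Bgn was called and Dcn, Fmod, Chad and Lum were not. Bgn (ENSRNOG00000055962) encodes biglycan, which binds collagen fibrils and transforming growth factor beta. It ran from 58.6 through a median of 117 to 239.7 CPM in knockouts in the cold, against 27.1, 64.5 and 92.5 CPM in knockouts at room temperature. In controls it was 69.1, 90.2 and 131 CPM in the cold, against 24.6, 50.04 and 61.7 CPM at room temperature. The control groups did not overlap, and 5 of 8 knockouts in the cold lay above every knockout at room temperature. For Bgn the log2 change was 0.995 ± 0.25 in knockouts (adjusted p = 0.0357), 1.05 ± 0.24 in controls (adjusted p = 0.0265) and 1.02 ± 0.17 for the mean (adjusted p = 0.00035). The call in knockouts was lost without the 7 libraries low on the first component and with only the libraries compared. It was also lost in several fits that each left out 1 library.

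Dcn encodes decorin, the close relative of biglycan on the same fibrils. It had 275, 365 and 666 CPM in knockouts in the cold, against 304, 410.3 and 442 CPM in knockouts at room temperature, and 321, 473 and 601 CPM in controls in the cold, against 134, 413 and 589 CPM in controls at room temperature. The ranges overlapped almost wholly, and the log2 change for the mean was 0.15 with a 95% interval of -0.16 to 0.47 (adjusted p = 0.647). The ratio of Bgn to Dcn within a library ran from 0.133 to 0.871 in knockouts in the cold, against 0.0892 to 0.268 in knockouts at room temperature. In controls it ran from 0.130 to 0.366 in the cold, against 0.105 to 0.184 at room temperature. Lum, which encodes lumican, had a log2 change of -0.18 ± 0.18 (adjusted p = 0.647).

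Among the fibulins and fibrillins, 1 of 4 was called. Fbln1 (ENSRNOG00000014137) encodes fibulin-1, a glycoprotein of basement membranes and elastic fibres. It ran from 10.1 through a median of 27.5 to 56.2 CPM in knockouts in the cold, against 12.3, 17.8 and 21.6 CPM in knockouts at room temperature. In controls it was 22.3, 26.6 and 54.2 CPM in the cold, against 4.41, 15.7 and 22.1 CPM at room temperature. The control groups did not overlap, whereas the lowest knockout was a cold one and 5 of 8 cold knockouts lay above all at room temperature. For Fbln1 the log2 change was 0.87 ± 0.32 in knockouts (adjusted p = 0.169), 1.23 ± 0.31 in controls (adjusted p = 0.0476) and 1.05 ± 0.22 for the mean (adjusted p = 0.00354). The call in controls was kept in 9 of 31 fits that each left out 1 library. Fbn1, which encodes fibrillin-1 of the microfibrils, had a log2 change for the mean of 0.03 with a 95% interval of -0.41 to 0.47 (adjusted p = 0.961).

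Of the other glycoproteins Prg4 was the called one of 6. Prg4 (ENSRNOG00000002385) encodes lubricin, which lubricates joints and the gliding surfaces of tendon and fascia. It ran from 17.3 through a median of 26.7 to 48.8 CPM in knockouts in the cold, against 13.1, 15.5 and 18.9 CPM in knockouts at room temperature. In controls it was 14.2, 24.5 and 52.8 CPM in the cold, against 7.72, 14.5 and 20.5 CPM at room temperature. In the cold 7 of 8 knockouts and 6 of 8 controls lay above every rat of their genotype at room temperature. For Prg4 the log2 change was 0.99 ± 0.23 in knockouts (adjusted p = 0.0243), 1.02 ± 0.23 in controls (adjusted p = 0.0239) and 1.01 ± 0.16 for the mean (adjusted p = 0.000191). The span of Prg4 overlaps that of the gene Tpr in the RefSeq GRCr8 table. Without the strand setting, and with exons not compared, whether the pair shares reads is not known.

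The remaining glycoproteins were not called for the mean of the genotypes. Fn1, fibronectin, averaged 314 ± 122 CPM in knockouts in the cold and 207 ± 71.3 CPM in knockouts at room temperature (SD, n = 8 and 7). In controls Fn1 averaged 258 ± 51.1 CPM in the cold and 212 ± 59.2 CPM at room temperature (SD, n = 8 each), and its log2 change for the mean was 0.45 ± 0.18 (adjusted p = 0.144). Sparc, the most abundant of all 71 members, encodes a collagen-binding protein that takes part in fibril assembly. It averaged 841 ± 281 CPM in knockouts in the cold and 976 ± 258 CPM in knockouts at room temperature, and 898 ± 121 CPM in controls in the cold and 828 ± 280 CPM in controls at room temperature. Its log2 change was -0.05 with a 95% interval of -0.37 to 0.27. Postn, which encodes the matricellular protein periostin, averaged 10.4 ± 5.44 CPM in knockouts in the cold and 5.12 ± 2.35 CPM in knockouts at room temperature. In controls it averaged 8.66 ± 8.19 CPM in the cold and 7.20 ± 3.67 CPM at room temperature, and the log2 change for the mean was 0.65 ± 0.31 (adjusted p = 0.233).

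**Figure D2:**
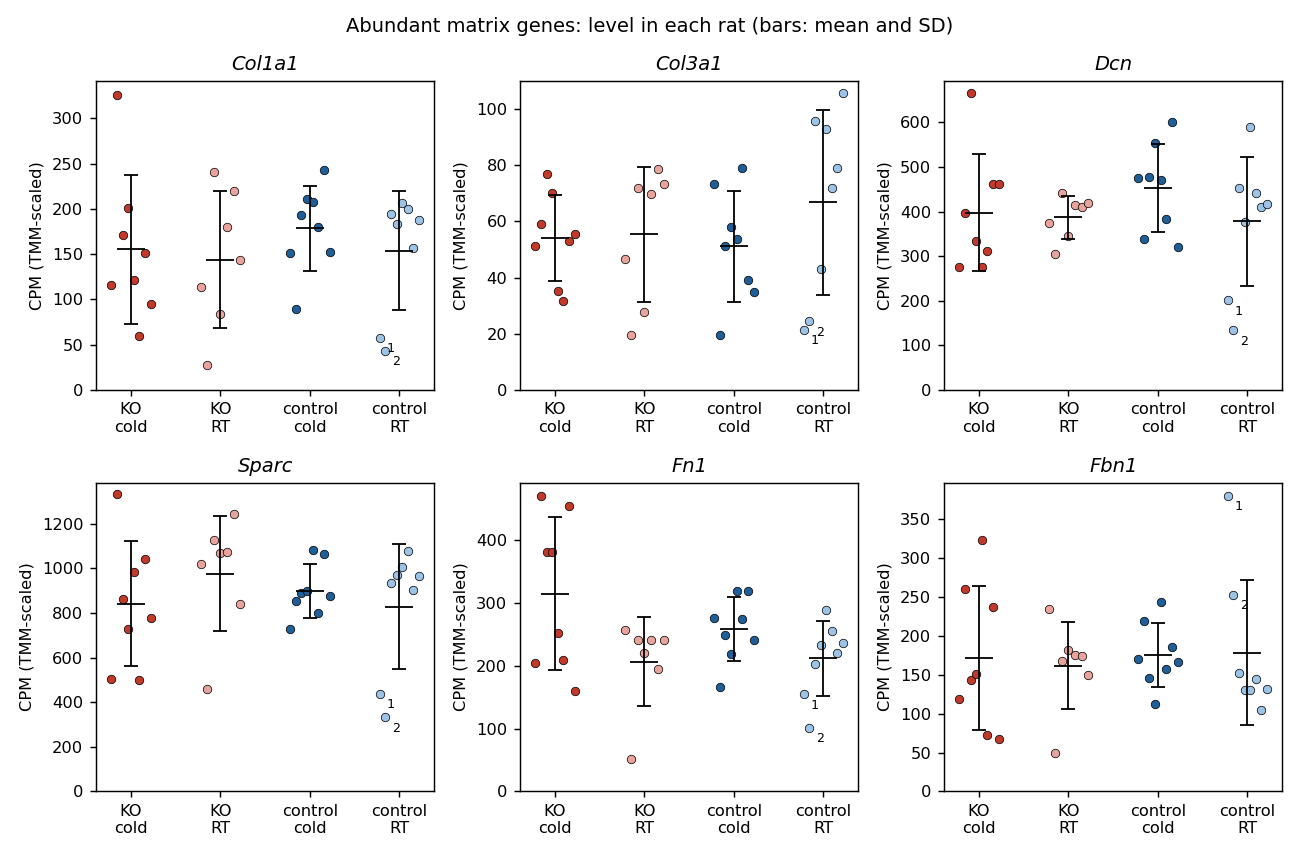
Level (CPM after TMM scaling, linear axis from 0) of 6 abundant members, Col1a1, Col3a1, Dcn, Sparc, Fn1 and Fbn1, in each of the 31 rats, with KO for the Ucp1 knockout and RT for room temperature; horizontal bars are means and error bars SDs. The cold and room temperature groups overlap in every panel, and control rats 1 and 2 at room temperature, marked by numerals, are the lowest 2 of their group in all panels except Fbn1, where they are the highest 2.

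The fibrillar collagens, which make up most of the mass of the matrix, gave 1 called member of 6, and it was lower in the cold. Col5a3 (ENSRNOG00000020525) encodes a minor chain of type V collagen, the collagen that seeds fibrils. It ran from 8.25 through a median of 20.4 to 24.7 CPM in knockouts in the cold, against 10.6, 26.97 and 38.0 CPM in knockouts at room temperature. In controls it was 6.91, 17.4 and 30.8 CPM in the cold, against 26.7, 30.7 and 53.6 CPM at room temperature. The groups overlapped in both genotypes. For Col5a3 the log2 change was -0.42 ± 0.25 in knockouts (adjusted p = 0.474), -0.96 ± 0.25 in controls (adjusted p = 0.0544, and 0.0133 by DESeq2) and -0.69 ± 0.18 for the mean (adjusted p = 0.0155). Without the 7 libraries low on the first component the mean change was -0.57 (adjusted p = 0.067).

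Col1a1 and Col3a1 encode chains of types I and III, the main fibrillar collagens of muscle. Type I is seen here through Col1a1 alone, since no listed gene bears the symbol Col1a2. Col1a1 had 59.5, 136 and 326 CPM in knockouts in the cold, against 27.2, 143 and 240.5 CPM in knockouts at room temperature, and 89.6, 186 and 243 CPM in controls in the cold, against 43.3, 185 and 207 CPM in controls at room temperature. The log2 change for the mean was 0.16 with a 95% interval of -0.35 to 0.67 (adjusted p = 0.777), and without the 7 libraries it was -0.023. The span of Col1a1 overlaps that of Sgca in the RefSeq GRCr8 table. Without the strand setting, and with exons not compared, whether the pair shares reads is not known. Col3a1 averaged 54.0 ± 15.4 CPM in knockouts in the cold and 55.4 ± 24.1 CPM in knockouts at room temperature, and 51.2 ± 19.8 CPM in controls in the cold and 66.8 ± 33.0 CPM in controls at room temperature. Its log2 change for the mean was -0.21 with a 95% interval of -0.67 to 0.26 (adjusted p = 0.672). These intervals leave room for changes in either direction, so the main collagens are not shown to be stable.

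Of the 3 tested collagens that sit on the surface of fibrils, 1 was called. Col16a1 (ENSRNOG00000031475) encodes type XVI collagen, a fibril-associated collagen. It had 6.54, 13.7 and 18.9 CPM in knockouts in the cold, against 4.70, 7.69 and 11.7 CPM in knockouts at room temperature, and 6.51, 10.04 and 19.6 CPM in controls in the cold, against 4.17, 8.91 and 11.2 CPM in controls at room temperature. The groups overlapped, with 5 of 8 knockouts and 2 of 8 controls in the cold above every rat of their genotype at room temperature. The log2 change for the mean was 0.57 ± 0.17 (adjusted p = 0.0449), a call kept in 12 of 31 fits that each left out 1 library, and without control rats 1 and 2 it was 0.47 (adjusted p = 0.074).

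With all 31 libraries no collagen of basement membranes was called for the mean of the genotypes among 4 tested. Their log2 changes ran from -0.32 for Col4a4 to -0.06 for Col18a1. Without knockout rat 10 at room temperature edgeR called Col4a4 for the mean. Col4a1, a chain of the common type IV network, averaged 53.7 ± 13.7 CPM in knockouts in the cold and 53.5 ± 11.7 CPM in knockouts at room temperature, and 45.1 ± 5.40 CPM in controls in the cold and 50.5 ± 6.57 CPM in controls at room temperature. Its log2 change for the mean was -0.08 with a 95% interval of -0.29 to 0.13. Its partner chain Col4a2 averaged 0.663 CPM over all rats, against 50.6 CPM for Col4a1, and was among the 7 members that did not pass the filter. The other 6 not tested were Col13a1, Col6a6, Col4a3, Col24a1, Adamts4 and Col20a1, with means of 0.341 to 0.638 CPM. Collagen VI, whose chains form beaded filaments around fibres, gave 0 called of 2 tested, with log2 changes of -0.09 for Col6a2 and -0.10 for Col6a1.

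Laminins are the cross-shaped proteins that anchor cells to the basement membrane. Lamb2, the beta chain of the mature muscle and synaptic basement membrane, had a log2 change for the mean of 0.13 ± 0.10 (adjusted p = 0.514). Lama4, an alpha chain of vessels and nerve, had -0.59 ± 0.19 (adjusted p = 0.0562), which DESeq2 placed past the threshold.

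In the class of other collagens 0 of 3 were called by edgeR for the mean of the genotypes with all 31 libraries. Without knockout rat 13 at room temperature Col8a2 was called. Col7a1, the collagen of anchoring fibrils, had 2.71, 5.94 and 12.2 CPM in knockouts in the cold, against 4.11, 7.75 and 22.2 CPM in knockouts at room temperature, and 4.27, 5.47 and 20.9 CPM in controls in the cold, against 5.38, 10.6 and 31.4 CPM in controls at room temperature. The groups overlapped. The log2 change was -0.78 ± 0.27 (adjusted p = 0.0906), and without the 7 libraries low on the first component it was -0.92 (adjusted p = 0.00566). EdgeR also called Col7a1 without control rat 17 in the cold.

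**Figure D3:**
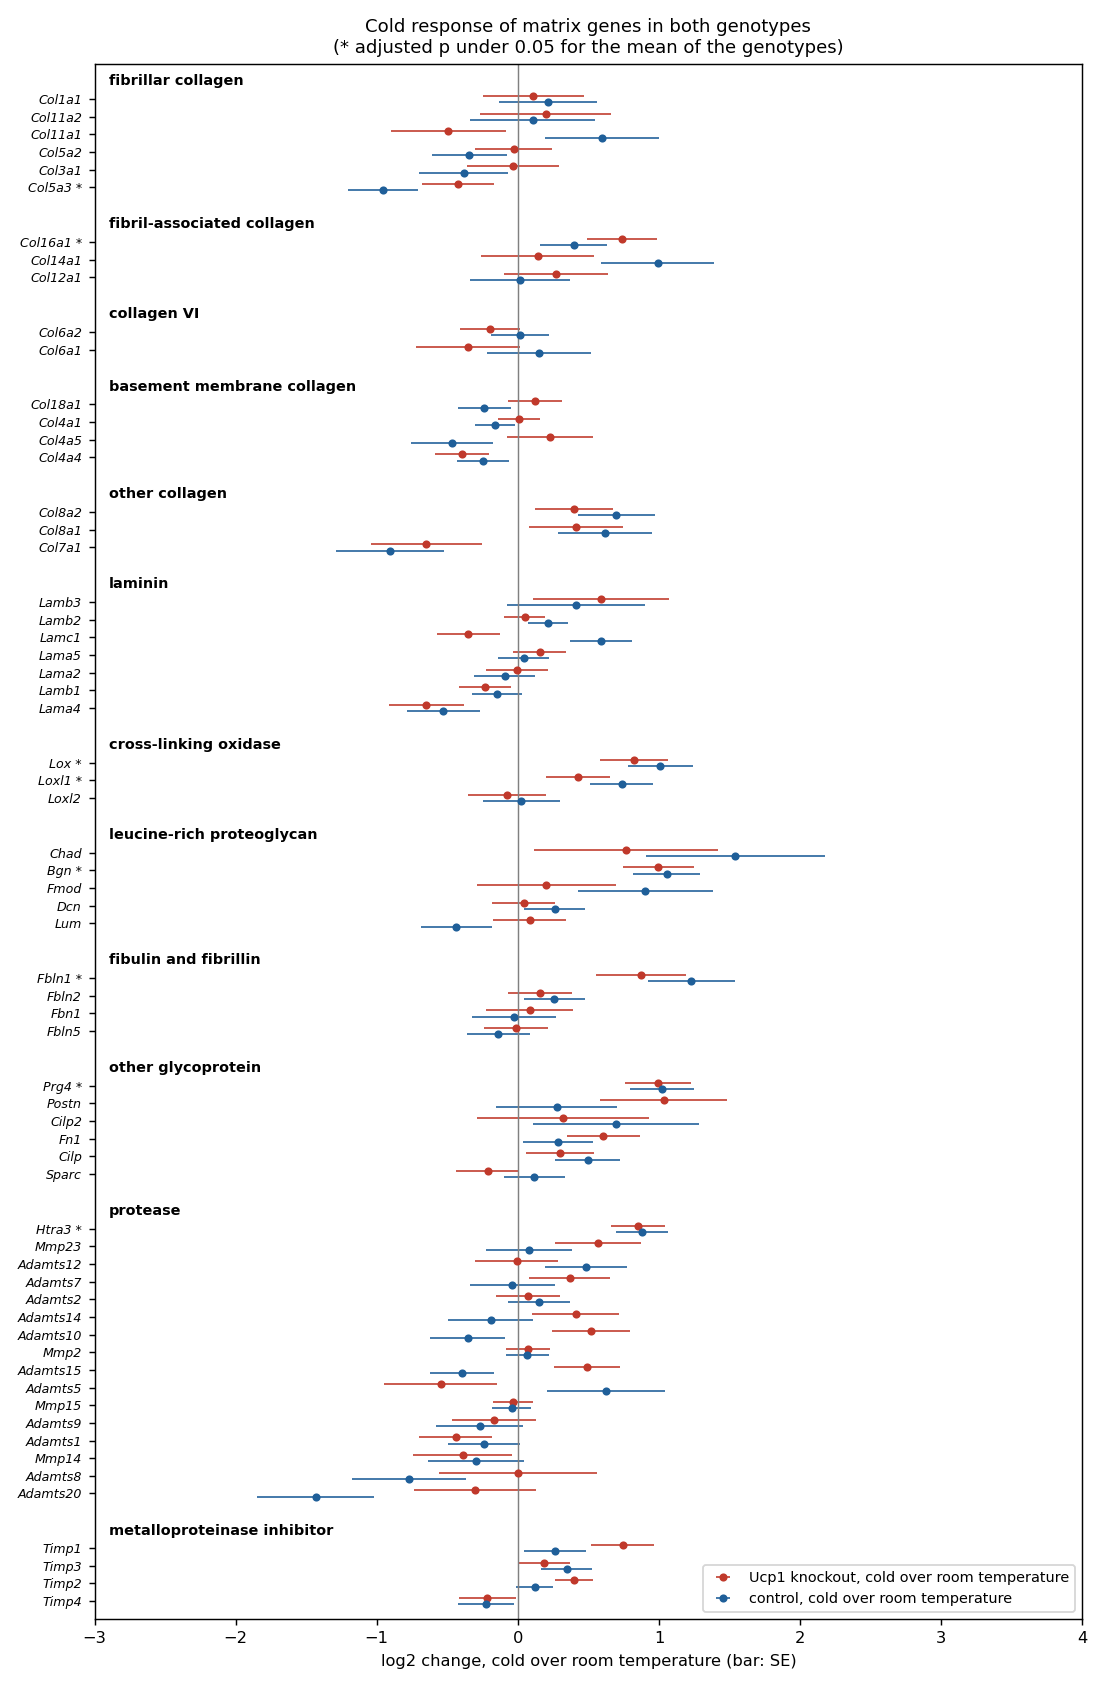
Log2 change in the cold relative to room temperature of 63 of the 64 tested members, grouped by role, in Ucp1 knockouts (red, upper point of each pair) and controls (blue, lower point); bars are the SE of the fit and asterisks mark the 8 of these called for the mean of the genotypes. Htra3, Prg4, Bgn and Lox lie between 0.82 and 1.05 in both genotypes, while Col1a1, Dcn, Sparc and Fbn1 lie near 0.

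Promoter sequences of the called members are shown because these genes moved in the same tissue under the same exposure. The RefSeq promoter table, of build GRCr8, held an entry for 53 of the 71 members and for 5 of the 9 called ones, Htra3, Prg4, Loxl1, Col16a1 and Col5a3. The 250 bases before the annotated start were searched on both strands for 6 motifs. They were the TATA box, spelled TATAAA, and the box named for its letters, CCAAT. The GC box was searched as GGGCGG. The MCAT element of muscle genes was searched as CATTCC. The SMAD element was searched as CAGAC. The AP-1 site was searched as TGA and TCA with any base between them. No match overlapped another in these windows. Printed are Htra3 and Prg4, called in both genotypes, and Col5a3, the called member that was lower. Capitals mark every match, and each sequence is given 5′ to 3′ in the direction of the gene. Htra3 lies at chr14:79293291-79293540 on the plus strand, Prg4 at chr13:65054226-65054475 on the minus strand and Col5a3 at chr8:27625949-27626198 on the minus strand.
Htra3: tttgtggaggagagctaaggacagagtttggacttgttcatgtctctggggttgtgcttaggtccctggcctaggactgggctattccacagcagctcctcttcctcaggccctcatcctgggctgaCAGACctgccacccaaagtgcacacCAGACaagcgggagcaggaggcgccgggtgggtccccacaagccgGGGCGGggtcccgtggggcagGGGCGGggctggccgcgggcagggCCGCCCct
Prg4: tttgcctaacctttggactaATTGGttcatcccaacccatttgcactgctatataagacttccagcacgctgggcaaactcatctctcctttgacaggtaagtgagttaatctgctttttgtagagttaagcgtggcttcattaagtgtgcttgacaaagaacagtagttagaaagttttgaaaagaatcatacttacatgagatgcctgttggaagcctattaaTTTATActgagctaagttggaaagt
Col5a3: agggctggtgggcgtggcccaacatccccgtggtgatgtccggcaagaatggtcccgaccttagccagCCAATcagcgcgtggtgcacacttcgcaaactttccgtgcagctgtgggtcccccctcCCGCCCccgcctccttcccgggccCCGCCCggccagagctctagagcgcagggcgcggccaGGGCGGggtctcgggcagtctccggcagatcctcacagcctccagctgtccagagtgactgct

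Htra3 held 3 GC boxes and 2 SMAD elements, Prg4 held 1 TATA box and 1 CCAAT box, and Col5a3 held 3 GC boxes and 1 CCAAT box. Both matches of Prg4, the TATA box included, are spelled on the strand opposite to the gene. Of those not printed, Loxl1 held 2 SMAD elements and 1 MCAT element, and Col16a1 held 2 GC boxes. Of the 33469 promoters in the table, 30.5% held a GC box, 42.9% a SMAD element, 34.0% a CCAAT box, 12.9% a TATA box, 12.1% an MCAT element and 6.34% an AP-1 site. No motif was present in all 5 promoters, and the most frequent, the GC box, was in Htra3, Col16a1 and Col5a3. A match of letters is a description of the window and shows no binding.

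Genotype gave no called member in any comparison. At room temperature edgeR called 0 of 64 members between knockouts and controls, with 0% of all genes called. At an unadjusted p under 0.05 there were 6 members, beside 7.06% of all genes, and DESeq2 called 0. In the cold edgeR called 0 of 64 members, with 0.00992% of all genes called. At an unadjusted p under 0.05 there were 3 members (Timp1, Adamts7 and Htra3), beside 6.28% of all genes, and DESeq2 called 0. Averaged over temperatures, a contrast added after seeing the data, edgeR again called 0, with 0% of all genes called. At an unadjusted p under 0.05 there were 5 members, beside 6.4% of all genes, and DESeq2 called 0. Htra3 was 0.40 ± 0.13 higher on the log2 scale in knockouts over both temperatures, with a 95% interval of 0.13 to 0.67 before any correction (adjusted p = 0.524). Bgn was 0.43 ± 0.17 higher, with a 95% interval of 0.08 to 0.78 before any correction (adjusted p = 0.744). Neither passed the correction.

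The cold responses of the genotypes could not be separated by the test of their difference. For the interaction, the cold change in knockouts minus that in controls, edgeR called 0 of 64 members, with 0% of all genes called. At an unadjusted p under 0.05 there were 3 members, beside 7.31% of all genes, and DESeq2 called 0. For the 9 called members it ran from -0.36 for Fbln1 to 0.53 for Col5a3 on the log2 scale, and the smallest unadjusted p among them was 0.144, for Col5a3. The 95% intervals were wide, from -0.57 to 0.51 for Htra3 and from -1.26 to 0.54 for Fbln1, so a similar response in both genotypes is not shown either. The 3 members under 0.05 are named here after their values were seen. Lamc1, the common gamma chain of laminins, had an interaction of -0.94 ± 0.31 (edgeR adjusted p = 0.528). It averaged 13.8 ± 5.77 CPM in knockouts in the cold and 17.7 ± 4.11 CPM in knockouts at room temperature, but 18.3 ± 4.68 CPM in controls in the cold and 12.2 ± 3.84 CPM in controls at room temperature. The proteases Adamts15 and Adamts10 had interactions of 0.89 ± 0.33 (adjusted p = 0.548) and 0.87 ± 0.38 (adjusted p = 0.643).

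The widest spread between rats of a group was found in Chad, Cilp2 and Fmod, with within-group SDs of 1.56, 1.53 and 1.19 on the log2 scale, against a median of 0.495 over the members and 0.420 over all genes. Without control rats 1 and 2 at room temperature the SDs were 1.13 for Chad, 1.03 for Cilp2 and 0.772 for Fmod. Chad and Cilp2 then still had the widest spread of the 64, whereas Fmod lay below Lamb3, Col12a1, Postn, Col14a1 and Col11a1. Chad encodes chondroadherin, Cilp2 a protein related to cartilage intermediate layer protein, and Fmod fibromodulin, and all are known from cartilage or tendon. Chad had 1.91, 5.04 and 21.7 CPM in knockouts in the cold, against 1.82, 3.36 and 10.7 CPM in knockouts at room temperature, and 1.217, 11.4 and 33.7 CPM in controls in the cold, against 0, 4.18 and 11.4 CPM in controls at room temperature. The groups overlapped, with 2 of 8 knockouts and 4 of 8 controls in the cold above every rat of their genotype at room temperature. The log2 change for the mean was 1.15 ± 0.45 (adjusted p = 0.136), larger than that of any called member and not past the threshold. Cilp2 had 0.51 ± 0.42 (adjusted p = 0.555) and Fmod 0.55 ± 0.34 (adjusted p = 0.396). The span of Chad overlaps that of Acsf2 in the RefSeq GRCr8 table. Without the strand setting, and with exons not compared, whether the pair shares reads is not known.

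These genes followed Tnmd, which encodes tenomodulin and marks tendon cells. No other tendon marker was used for this relation. Across 29 libraries, with group means removed and control rats 1 and 2 at room temperature left out, Pearson's r with Tnmd on the log2 scale was 0.847 for Fmod, 0.745 for Col1a1, 0.744 for Chad and 0.717 for Cilp2. Spearman's rho was 0.901 for Fmod, 0.794 for Col1a1, 0.791 for Chad and 0.778 for Cilp2. Over the 8 relations computed, the adjusted permutation p was 5.33e-05 for r of Fmod, Col1a1 and Chad and 0.00014 for Cilp2, and for rho it was 2.67e-05 for Fmod, Col1a1 and Chad and 4e-05 for Cilp2. Some of these rest on an unadjusted p of 1e-05, the smallest that 1e+05 permutations can give. Without the 2 rats farthest from the median of Tnmd, r was 0.814 for Fmod, 0.718 for Col1a1, 0.722 for Chad and 0.759 for Cilp2.

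Among the called members the relation was tested for Lox, Prg4 and Bgn, and none passed the threshold without control rats 1 and 2. Lox had r = 0.306 and rho = 0.310 (adjusted permutation p = 0.187 and 0.163), and Prg4 had r = 0.204 and rho = 0.156 (adjusted permutation p = 0.392 and 0.509). Bgn had r = 0.00804 and rho = -0.119 (adjusted permutation p = 0.969 and 0.568). With all 31 libraries r was 0.499 for Lox, 0.458 for Prg4 and 0.332 for Bgn (adjusted permutation p = 0.0113, 0.0134 and 0.0471), so these relations rest on the 2 rats. As a description without a test, r without the 2 rats was 0.692 for Col5a3 and 0.506 for Col16a1, and 0.108 for Htra3. Col3a1 lay between, with r = 0.460 (adjusted permutation p = 0.0332), rho = 0.331 (adjusted permutation p = 0.163) and r = 0.370 without the 2 farthest rats. In some rats other tendon markers differed from Tnmd. Cold knockouts 29 and 31 had 3.91 and 2.26 CPM of Tnmd but 134 and 166 CPM of Thbs4 (group medians 6.31 and 58.9). Cold knockout 26 was high in both, at 11.2 and 143 CPM. Cold controls 18 and 19 had 19.2 and 24.3 CPM of Tnmd but 42.8 and 47.9 CPM of Tppp3 (group medians 13.5 and 61.7). Their Comp was high, at 13.5 and 14.6 CPM (group median 8.84). All libraries come from the same muscle, the labels give no amount of tendon, and its part in the relations with Tnmd was not tested.

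**Figure D4:**
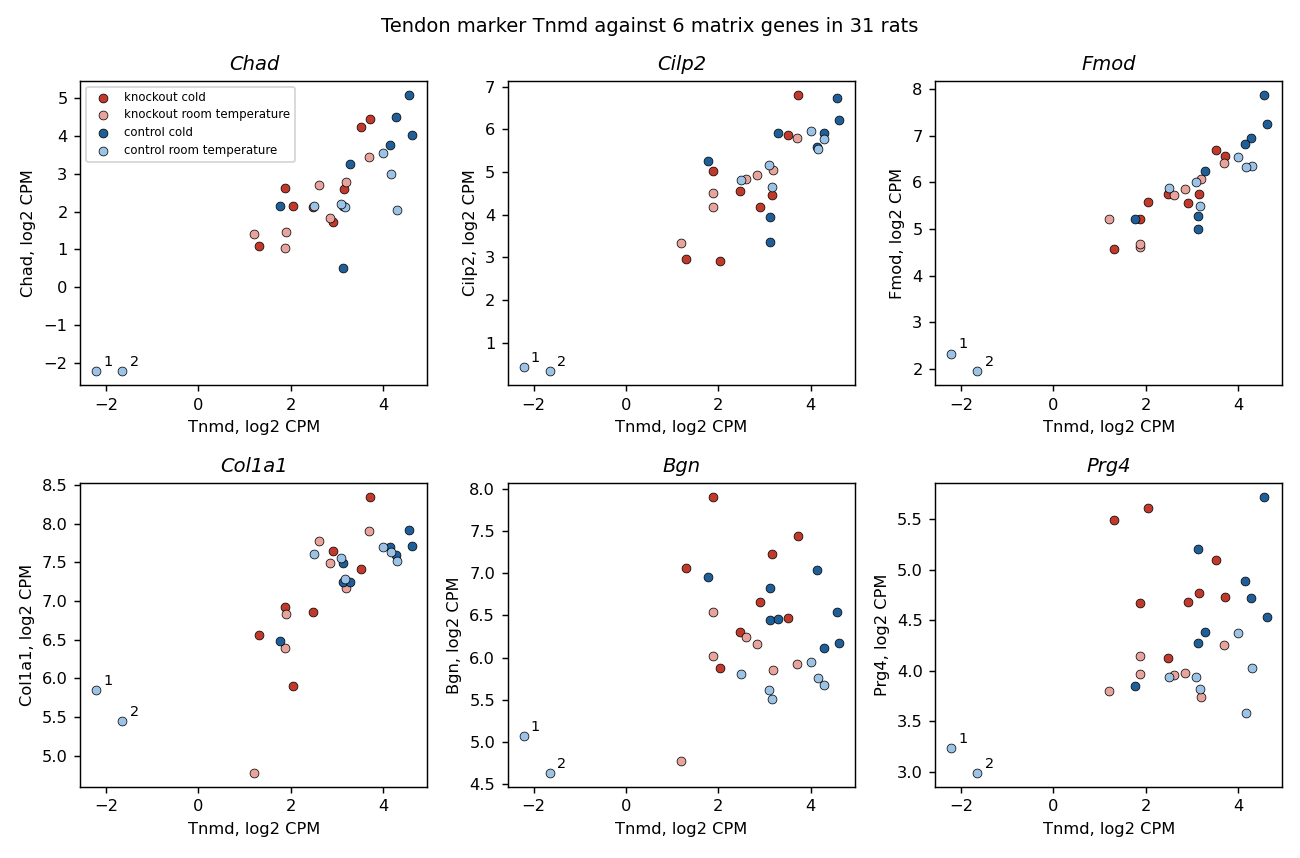
Level of Chad, Cilp2, Fmod, Col1a1, Bgn and Prg4 (log2 CPM with a prior count of 2) against that of the tendon marker Tnmd on the same scale in 31 rats, coloured by group; numerals 1 and 2 mark the control rats that stood apart. Points of Chad, Cilp2, Fmod and Col1a1 climb with Tnmd (r of 0.717 to 0.847 without rats 1 and 2), whereas those of Bgn (r = 0.00804) and Prg4 (r = 0.204) scatter.

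Control rats 1 and 2 at room temperature had the least of many matrix transcripts. Both lay below the other 6 of their group for 25 of the 64 members, or 39.1%, against 21.7% of all genes. Their log2 difference from the other 6 was -4.93 for Cilp2, -4.73 for Chad and -3.96 for Fmod, and -1.91 for Col1a1. Both rats together were higher on the same scale for other members, most of all Adamts20 (2.45), Mmp14 (1.77), Col7a1 (1.59) and Fbn1 (1.24). They had 0 and 0.104 CPM of Tnmd, against a group median of 8.53 CPM. The other tendon markers were also below their group medians, though not to the same degree. Kera was at 0.126 and 0.313 CPM (group median 11.4), Thbs4 at 10.1 and 12.2 (63.3) and Comp at 0.883 and 0.522 (2.55). Scx was at 29.2 and 33.3 CPM (group median 52.6) and Tppp3 at 31.3 and 30.4 CPM (group median 47.1). Whether these rats' samples held less tendon was not tested. Both rats had little of the adipocyte hormone gene Adipoq, at 0.630 and 0.313 CPM, against a group median of 13.3 CPM. Without both, the log2 change in controls was 0.88 for Bgn (adjusted p = 0.109), 0.73 for Htra3 (adjusted p = 0.057), 0.85 for Prg4 (adjusted p = 0.101), 0.83 for Lox (adjusted p = 0.109) and 0.93 for Fbln1 (adjusted p = 0.138). For the mean of the genotypes without both it was 0.94 for Bgn (adjusted p = 0.000909), 0.79 for Htra3 (adjusted p = 0.000124), 0.92 for Prg4 (adjusted p = 0.000473), 0.83 for Lox (adjusted p = 0.00177) and 0.90 for Fbln1 (adjusted p = 0.00353).

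Other genes of matrix making and sensing were counted for the mean of the genotypes, where 5.65% of all genes were called. Of collagen synthesis and processing 1 of 17 was higher, Fkbp10, a collagen chaperone (log2 change 0.45 ± 0.13, adjusted p = 0.0311). Of other matrix proteins 3 of 27 were higher, Tgfbi (0.45 ± 0.10, adjusted p = 0.0071), Thbs3 (0.67 ± 0.17, adjusted p = 0.0127) and the elastin gene Eln (0.51 ± 0.13, adjusted p = 0.0169), and 1 was lower, the vitronectin gene Vtn (-0.53 ± 0.12, adjusted p = 0.00599). Of other proteases and inhibitors 2 of 14 were higher, the lysosomal cathepsin Ctsb (0.41 ± 0.11, adjusted p = 0.0215) and Serpinf1 (0.51 ± 0.15, adjusted p = 0.0452). Of 18 matrix receptors and of 16 genes of transforming growth factor beta signalling edgeR called 0 for the mean. In knockouts alone the receptor proteoglycan gene Sdc4 was higher (0.73 ± 0.17, adjusted p = 0.0198).

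Markers of other cell types moved in part with the cold. The samples were muscle by their markers: the summed level of 8 fibre genes was 94997 to 171504 CPM in knockouts in the cold, 109196 to 147797 CPM in knockouts at room temperature, 145688 to 190882 CPM in controls in the cold and 119692 to 178878 CPM in controls at room temperature. Of these 8, 2 were higher in the cold for the mean of the genotypes, the slow myosin Myh7 (0.88 ± 0.11) and the myoglobin gene Mb (0.54 ± 0.13, edgeR adjusted p = 0.0122). Of 7 tested fibroblast markers and of 6 tendon markers edgeR called 0 for the mean of the genotypes. The 8 fibroblast markers summed to 472 to 1431, 589 to 1567, 409 to 1565 and 275 to 1109 CPM in the same order of groups, and the 6 tendon markers to 141 to 264, 105 to 207, 89.7 to 308 and 71.6 to 263 CPM. Of 7 immune markers 2 were higher, Cd163 of tissue macrophages (1.002 ± 0.15, adjusted p = 4.96e-05) and S100a8 of neutrophils (2.38 ± 0.43, adjusted p = 0.000814), and their list summed to 169 to 278, 112 to 186, 134 to 262 and 26.4 to 157 CPM. Of 8 adipocyte markers 1 was higher, Retn (1.95 ± 0.37, adjusted p = 0.00117), and their list summed to 448 to 1207, 358 to 562, 389 to 712 and 134 to 675 CPM, with 3 of its genes at 0 in a control library at room temperature.

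The remaining marker lists moved as follows for the mean of the genotypes. Of 7 endothelial markers 1 was lower, Cdh5 (-0.59 ± 0.12, adjusted p = 0.00186), and their list summed to 168 to 291, 166 to 279, 149 to 224 and 176 to 331 CPM in the same order of groups. Of 4 tested IDs of erythrocyte markers 3 were higher, 2 of Hba-a2 and Alas2 of haem synthesis (0.97 ± 0.23, adjusted p = 0.0102), and their list summed to 444 to 2019, 254 to 1079, 468 to 1084 and 336 to 659 CPM. Of 7 mural and 5 Schwann cell markers edgeR called 0; the 7 mural markers summed to 141 to 286, 105 to 234, 133 to 221 and 129 to 236 CPM, and 6 Schwann markers to 83.3 to 214, 73.9 to 240, 59.8 to 234 and 39.5 to 270 CPM. The part of these cell types in the matrix changes was not tested.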

How the data were processed

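The deposited table of counts holds whole reads per gene made by the authors, and the deposited normalized signal is those counts divided by DESeq2 size factors (largest relative difference 1.01e-09). Only the counts were tested. Rnor 6.0 and DESeq2 1.22.2 are named, per the submitters' processing notes. How reads were aligned, counted and assigned to strands is not given in the sources used here. Both tables list 11289 genes, with at least 93 counts over the 31 libraries, so low genes had been removed before deposit. No molecular identifiers are named, so counts may hold PCR copies. Within groups, all 105 library pairs differed beyond sampling noise (chi-square at least 5.62 times its degrees of freedom).

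EdgeR 4.0.16 in R 4.3.3 fitted 1 mean per group to all 31 libraries (27 residual degrees of freedom) after TMM scaling. The filter filterByExpr (at least 10 counts, total at least 15) kept 10082 genes. Tests are two-sided quasi-likelihood tests adjusted by Benjamini-Hochberg within each of 7 contrasts, threshold 0.05; a 95% interval is the change ± SE times the t quantile at 27 degrees of freedom. The fit was also run on simulated counts with known changes. These held no rats standing apart, and the outcome is not given here. P-values measure the spread between rats; the labels number every rat separately, so nothing pairs rats, and they name no batch. Alternatives were the DESeq2 1.42.0 test and its size factors, no filter, only the libraries compared, omission of rats, and 2 sets of omitted libraries chosen after seeing the data (below -30 on the first component). Correlations used log2 CPM (prior count 2), 1e+05 permutations within groups and scipy 1.17.1. Named are the members called in any contrast, the most abundant of each role and 12 preset ones; of other lists, up to 4 called genes. Members, lists and tests were chosen with earlier results of these data known. Sequences come from RefSeq (GRCr8). Of the called members, 1 is not reported here.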

Additional observations from a re-analysis of the deposited data

Results flagged for a closer look

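A single rat lay far from the others of its group in 9 of the 96 sets of group and named member examined. The measure was the gap to its nearest neighbour over the range of the group, both on the log2 scale (limits 0.568 for 7 rats and 0.526 for 8). Levels below are given in CPM, on which the ratio differs. Chance gives about 1 in 20. Of the 9, 6 were low values of knockout rat 10 at room temperature: 27.1 CPM for Bgn (next 57.7), 28.3 for Col4a1 (next 52.5), 12.5 for Col6a2 (next 31.3), 49.9 for Fbn1 (next 149), 5.18 for Loxl1 (next 10.2) and 460 for Sparc (next 838). Knockout rat 29 in the cold was low for Col5a3, at 8.25 CPM (next 15.8), and for Timp2, at 37.7 CPM (next 51.4). Control rat 17 in the cold was high for Col7a1, at 20.9 CPM (next 6.12).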

How the results depend on the processing

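No paired analysis was possible because the labels give every rat its own number. For the mean of the genotypes the count of called members (9) stayed between 7 and 11 under every alternative; counts for genotype and interaction stayed at 0. In controls the count of 5 was 7 with DESeq2, which added Adamts20 and Col5a3, both lower. It was 0 without control rats 1 and 2 at room temperature, 2 with only the libraries compared, 2 without the 7 libraries low on the first component and 2 without all of these; over single omissions it ran from 1 (control rat 2 at room temperature or 21 in the cold) to 6. In knockouts the count of 3 was 5 with DESeq2, 5 without control rats 1 and 2, 1 without the 7 libraries and 4 without all of these; over single omissions it ran from 0 (knockout rat 14 at room temperature) to 4. With all 31 libraries r with Tnmd was 0.458 for Prg4, 0.332 for Bgn and 0.499 for Lox, each then past the threshold. Signs turned for members that were not called. Without the 7 libraries the change in knockouts was -0.46 for Cilp2, -0.29 for Col1a1 and -0.13 for Fmod, and with rats 1 and 2 also left out -0.46, -0.29 and -0.13; for the mean it was -0.023 and -0.11 for Col1a1 and, under the last setting, -0.071 for Cilp2. Without rats 1 and 2, Col1a1 in controls was -0.076 and Mmp15 for the mean 0.029. Over single omissions Fbn1 for the mean ran from -0.068 to 0.157, and in knockouts Col1a1 ran from -0.13 to 0.281, Cilp2 from -0.21 to 0.570 and Fmod from -9.69e-05 to 0.383. The cause of these shifts was not tested. The 7 members not tested had too few counts for the filter.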
